A study of Mus musculus with 2 samples.

Results

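The interferon gamma (IFNγ) induced GTPases described here are 10 genes. They are 6 guanylate-binding protein (GBP) genes, Gbp2, Gbp3, Gbp4, Gbp5, Gbp7 and Gbp9, and 4 immunity-related GTPase (IRG) genes, Irgm1, Irgm2, Igtp and Iigp1. They were taken by symbol from tables that list 24421 genes, and all 10 were found. RNA was sequenced from naïve CD4 T cells of C57BL/6J mice that were skewed to Th1 cells in culture, with 1 library of Chi3l1+/+ cells (WT Th1) and 1 library of Chi3l1-/- cells (Chi3l1 KO Th1). Chi3l1, chitinase 3-like 1, is the gene disrupted in the KO mice, and the mutation was carried by the whole body of those mice rather than by T cells alone. Both cultures were activated through the T cell receptor and CD28 and given IL-12, IL-2 and an antibody against IL-4, and the study used young adult mice of both sexes. Whether an RNA sample came from 1 mouse or from several is not given in the sources used here. The comparison asks whether these GTPases, as targets of IFNγ, were higher in the library in which Ifng itself was higher. With 1 library per genotype there was no replicate error and no test between genotypes was possible.

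GBPs and IRGs are large cytosolic GTPases that cells switch on in response to interferons. IFNγ binds its receptor, and the signal passes through the receptor-bound kinases Jak1 and Jak2 to gamma-activated sites (GAS) near target genes, while Irf1 and related factors bind interferon-stimulated response elements (ISRE). The GTPases then gather on the membranes around intracellular parasites and bacteria and damage them. They are best known from macrophages and fibroblasts, and T cells that answer their own IFNγ make them too. Among the IRGs, Irgm1, Irgm2 and Igtp (also called Irgm3) are the regulatory proteins of the GMS type, named for letters of their GTP-binding loop, which hold the effector proteins of the GKS type, such as Iigp1 (Irga6), inactive on the cell's own membranes.

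The deposited values, taken to be log2(normalized count + 1), are printed on that scale, and every fold change below is the value of the library labelled KO minus that of WT Th1 on this scale. Rebuilt reads summed to 70748023 in WT Th1 and 63089403 in the library labelled KO. The targeted gene, listed as Chil1, had 1 rebuilt read in WT Th1 and 103 in the library labelled KO, which goes against the label, and the deposited values do not show which part of the gene these reads came from. That library is therefore called by its label throughout, and each direction below rests on that label. Markers of CD4 T cells (6 of 6) were present in both libraries, with summed normalized counts of 110080 and 91706, as were all 5 Th1 markers, which summed to 39888 and 48207. All 6 CD4 T cell markers were lower in the library labelled KO, with a median log2 fold change of -0.185. Of the Th1 markers 3 were higher and 2 lower in the library labelled KO, and Cxcr3 was low, with 265 and 112 normalized counts. Markers of other cells were much lower in sum, but moved between the libraries. The 4 B cell markers summed to 847 in WT Th1 and 1560 in the library labelled KO, the 7 neutrophil markers to 81 and 5, the 6 dendritic cell markers to 74 and 122, the 7 monocyte and macrophage markers to 687 and 578, the 2 CD8 T cell markers to 812 and 807 and the 2 NK cell markers to 16 and 14. All 4 B cell markers were above 0 in both libraries. Among the neutrophil markers 1 was at 0 in WT Th1 and 6 in the library labelled KO, and of the dendritic cell markers Siglech and Clec9a were at 0 in both. The sums hide that dendritic cell, monocyte and macrophage, and CD8 T cell markers each went both ways. In normalized counts of WT Th1 and the library labelled KO, Itgax had 43 and 5 but Flt3 17 and 66. Lyz2 had 33 and 2 but Csf1r 94 and 168, and Cd8a had 279 and 423 but Cd8b1 533 and 384. Myeloid and B cells also make GBPs and IRGs, and their part in the results below was not tested.

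The sequence upstream of the GTPase genes is shown because GAS and ISRE letters can be read there beside the values. RefSeq start sites (GRCm38.p6) were at hand for 7 of the 10 genes, Gbp2, Gbp3, Gbp5, Gbp7, Irgm1, Irgm2 and Igtp. The 250 bases before the start were searched on both strands for a GAS, TTCNNNGAA, and for an ISRE core, GAAANNGAA. An ISRE core was found before 7 of 7 genes and a GAS before 4, namely Gbp5, Gbp7, Irgm2 and Igtp, so that 4 had both. Of all 32851 RefSeq windows of this length, 7.13% held an ISRE core, 7.02% a GAS and 0.752% both. These matches are letters in a sequence and not measured binding. The windows of Igtp (chr11:58199306-58199555, plus strand), Irgm2 (chr11:58214727-58214976, plus strand), Gbp7 (chr3:142530086-142530335, plus strand) and Tgtp2 (chr11:49064213-49064462, minus strand) follow, each read in the direction of its gene and ending at the base before the start, with the motif matches in capitals. Tgtp2, an effector IRG outside the 10 genes, is shown for the arrangement it shares with Igtp and Irgm2. All 4 windows lie outside the exons of GENCODE M21. This does not hold for every window searched. Exons cover all 250 bases of the Irgm1 window, so the Irgm1 matches lie in exon sequence. They also cover the last 61 bases of the Gbp2 window, so its only match, the ISRE core at -58, lies in exon sequence too. Covered as well are 34 bases of the Gbp5 window, and 18 and 178 of the first and second Gbp3 windows.
Igtp: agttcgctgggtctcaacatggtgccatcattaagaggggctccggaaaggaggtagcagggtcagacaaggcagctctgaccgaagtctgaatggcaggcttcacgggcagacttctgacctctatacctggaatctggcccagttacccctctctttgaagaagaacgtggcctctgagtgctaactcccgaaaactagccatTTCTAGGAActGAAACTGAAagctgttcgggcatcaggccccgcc
Irgm2: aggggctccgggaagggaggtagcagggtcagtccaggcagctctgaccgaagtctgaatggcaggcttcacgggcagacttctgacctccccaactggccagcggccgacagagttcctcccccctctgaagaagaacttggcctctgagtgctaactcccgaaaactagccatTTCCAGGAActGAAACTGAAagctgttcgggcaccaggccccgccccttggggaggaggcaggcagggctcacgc
Gbp7: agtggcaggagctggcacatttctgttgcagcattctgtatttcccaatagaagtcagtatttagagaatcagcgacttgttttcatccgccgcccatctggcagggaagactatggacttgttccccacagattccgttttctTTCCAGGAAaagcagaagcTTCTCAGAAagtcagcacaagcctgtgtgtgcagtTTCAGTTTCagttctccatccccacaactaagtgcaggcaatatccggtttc
Tgtp2: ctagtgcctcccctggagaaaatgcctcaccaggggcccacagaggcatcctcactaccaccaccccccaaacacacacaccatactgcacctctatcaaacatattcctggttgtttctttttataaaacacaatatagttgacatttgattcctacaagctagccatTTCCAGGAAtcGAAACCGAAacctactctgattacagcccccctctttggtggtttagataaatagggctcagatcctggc
In Igtp, Irgm2 and Tgtp2 the GAS came first and the ISRE core began 11 bases after the start of the GAS, which leaves 2 bases between them. The GAS began at position -45 in Igtp, -75 in Irgm2 and -81 in Tgtp2, counted from the start site, and the ISRE core at -34, -64 and -70. This spacing and order was found in 7 of all 32851 windows (0.0213%), among them Tgtp1, the near copy of Tgtp2. The spacing was read from the windows of Igtp, Irgm2 and Tgtp2, which are counted in the 7, so the share describes the pattern and does not test it. In Gbp7, by contrast, GAS matches began at -106 and -87 and the ISRE core at -52, farther from each other. Gbp2 held an ISRE core at -58 and no GAS. In Gbp3 and in Irgm1, 2 ISRE cores overlapped, at -44 and -38 and at -30 and -24. A second RefSeq start of Gbp3 had neither motif.

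**Figure D1:**
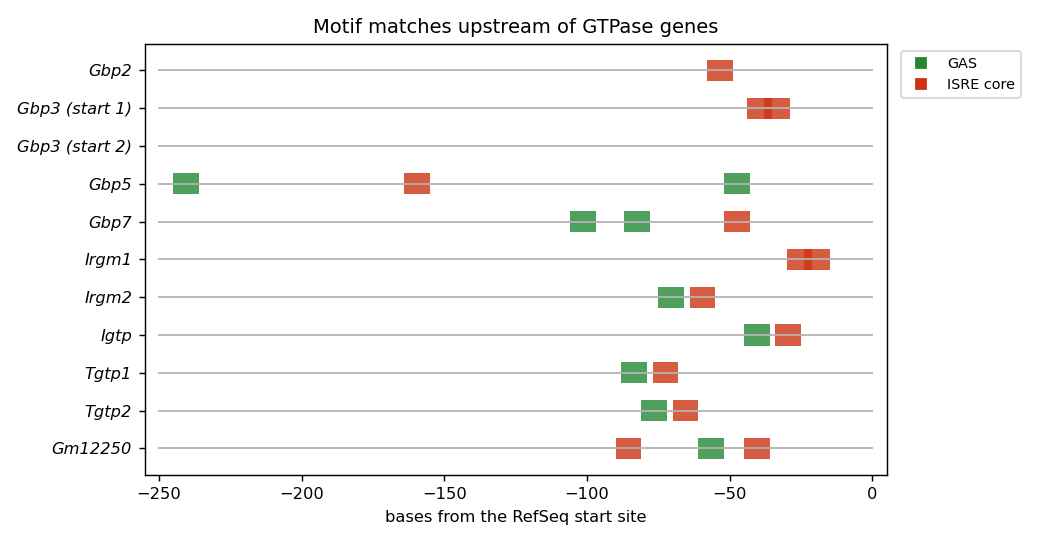
Positions of GAS (green) and ISRE core (red) matches in the 250 bases before each RefSeq start site, in bases from the start on the x axis, for the 7 GTPase genes with a start site and for Tgtp1, Tgtp2 and Gm12250, which are IRG genes outside the 10. Igtp, Irgm2, Tgtp1 and Tgtp2 show the GAS and ISRE core side by side with 2 bases between them.

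All 10 GTPases were well expressed in both libraries, and none differed by 1.5-fold or more as deposited. Mean log2 values ran from 9.67 to 14.39, and the lowest member, Iigp1 in WT Th1, still had 696 rebuilt reads. Log2 fold changes ran from -0.41 for Gbp9 to 0.55 for Iigp1, with a median of 0.07. As deposited, 6 genes were higher and 4 lower in the library labelled KO, but with the trend of fold change with transcript GC content removed it was 3 higher and 7 lower. Of the 10 genes, 0 were at least 2-fold higher and 0 at least 2-fold lower, beside 2.03% and 2.50% of the 12059 genes with a mean log2 value of at least 5. At 1.5-fold the counts were again 0 and 0, beside 7.64% and 9.45% of those genes. For these 12059 genes the median log2 fold change was -0.005 and the median size, without sign, was 0.27, against 0.22 for the 10 GTPases. Among the 6132 genes in the range of mean level that the members span, 91.2% differed by less than 1.5-fold, so a count of 0 in 10 was near the background. The 10th and 90th percentiles of the log2 fold change of those genes were -0.47 and 0.39, and 9 of the 10 GTPases lay between them. The summed normalized counts of the 10 genes were 67167 in WT Th1 and 65539 in the library labelled KO. In the same libraries Ifng went from 3375 to 8445 normalized counts.

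**Figure D2:**
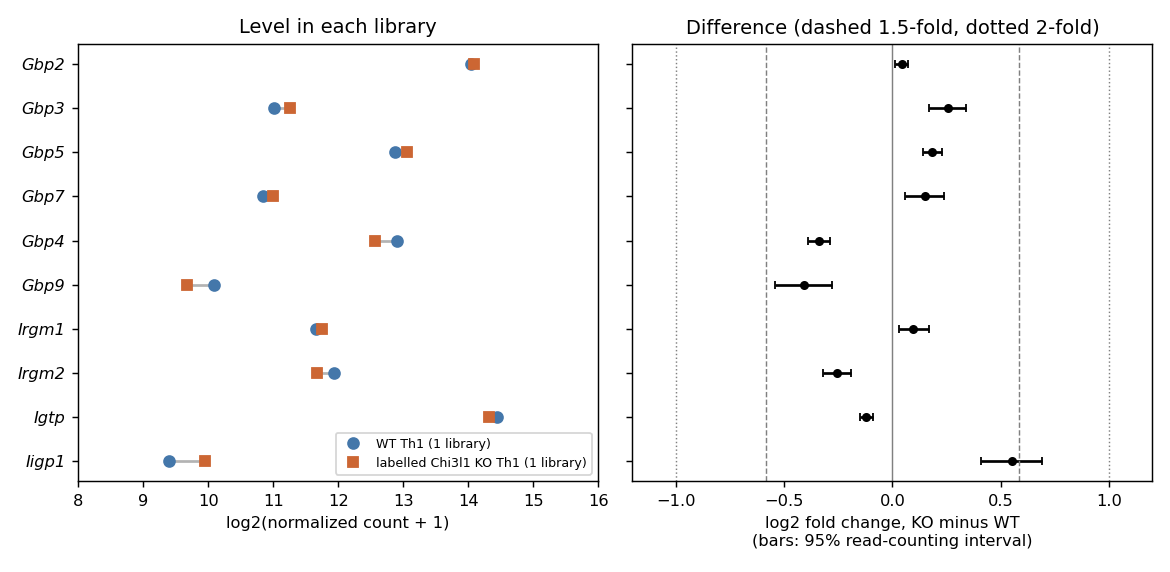
Left, log2(normalized count + 1) of each GTPase gene in the single WT Th1 library (circles) and in the single library labelled Chi3l1 KO Th1 (squares). Right, the difference of the 2 values with its 95% exact binomial interval for read counting alone, with dashed lines at 1.5-fold and dotted lines at 2-fold. Every gene lies inside the 1.5-fold lines, from -0.41 (Gbp9) to 0.55 (Iigp1), although directions of the smallest differences depend on the correction for GC content.

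Levels differed between the genes far more than between the libraries. Per kb of the longest protein-coding transcript, Igtp had the highest level, with 11053 normalized counts per kb in WT Th1 and 10171 in the library labelled KO. Gbp2 followed with 6699 and 6902, and Gbp5 with 2460 and 2791. At the other end were Gbp9 with 248 and 187 and Iigp1 with 216 and 316 normalized counts per kb. These were the only neighbours at the low end that traded places between the libraries, and Irgm1 (1431 and 1531) and Gbp4 (1686 and 1334) traded the ranks 4 and 5. Gbp3, Irgm2 and Gbp7 lay between, from 327 (Gbp7) to 1106 (Irgm2) in WT Th1. With no replicates, whether neighbours in this order differ could not be judged. With the length of all exons of a gene in place of the transcript, Igtp, Gbp2 and Gbp5 still held the first 3 ranks in both libraries, and Irgm1 moved from rank 5 to 7 in WT Th1.

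The GBP genes lie in 2 clusters. Gbp5, Gbp7, Gbp3 and Gbp2 are on chromosome 3 between 142493978 and 142638008, and Gbp4 and Gbp9 on chromosome 5 between 105077630 and 105139586 (GRCm38, GENCODE M21). Gbp2, a lipid-anchored GBP that gathers on parasite vacuoles, stood at 14.04 on the log2 scale in WT Th1 and 14.08 in the library labelled KO, or 16855 and 17365 normalized counts. This difference of 0.043 (95% exact binomial interval 0.01 to 0.07, counting error only) became -0.08 with the GC trend removed. Gbp5, a lipid-anchored GBP tied to inflammasome activation, was at 12.88 and 13.06, a difference of 0.18 (0.14 to 0.23). Gbp3 was at 11.01 and 11.26, a difference of 0.26 (0.17 to 0.34), which was the largest of the chromosome 3 genes. Gbp7, which is known to take part in antimicrobial defence with the other GBPs, was at 10.85 and 10.99, a difference of 0.15 (0.06 to 0.24) that became -0.084 with the GC trend removed. All 4 chromosome 3 genes were thus slightly higher in the library labelled KO as deposited, with a median of 0.17, and 2 of them, Gbp3 and Gbp5, stayed higher without the GC trend.

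The 2 chromosome 5 members were lower. Gbp4 was at 12.90 in WT Th1 and 12.56 in the library labelled KO, from 7910 and 6271 rebuilt reads, a difference of -0.34 (-0.39 to -0.29). Gbp9 was at 10.09 and 9.68, from 1123 and 847 rebuilt reads, a difference of -0.41 (-0.54 to -0.28). With the GC trend removed Gbp9 was the single member beyond 1.5-fold, at -0.61, and Gbp4 was at -0.54. Of the other 4 GBP genes of that cluster, 3 were higher and 1 lower as deposited. Gbp8 had 0.31 (0.09 to 0.52), Gbp6 0.13 (0.03 to 0.22), Gbp10 0.084 (-0.04 to 0.21) and Gbp11 -0.11 (-0.27 to 0.05). In windows of 100 bases, Gbp6 and Gbp10 shared 44.2% and 56.1% with each other. With another gene model, Gm43302, they shared 82.9% and 70%, so the values of Gbp6 and Gbp10 are uncertain. Gbp2b, the mouse gene also called Gbp1, was almost silent, with 8 and 10 rebuilt reads. Taking all 11 GBP genes, 10 had a mean log2 value of at least 5, 7 of these were higher and 3 lower, and the median was 0.10.

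Of the regulatory IRGs, Igtp was the most abundant member. It lies on chromosome 11 from 58199556 to 58207591 and was at 14.45 in WT Th1 and 14.33 in the library labelled KO, or 22349 and 20565 normalized counts, a difference of -0.12 (-0.15 to -0.09) that was 0.011 after quantile normalization. Irgm2 (58199618 to 58222782, overlapping Igtp) was at 11.93 and 11.68, a difference of -0.26 (-0.32 to -0.19). Irgm1, the master regulator of the family that also acts in autophagy, lies on the same chromosome from 48861968 to 48871683. It was at 11.66 and 11.76, from 3341 and 3581 rebuilt reads, a difference of 0.097 (0.03 to 0.17), or -0.05 with the GC trend removed. The 3 regulators had a median of -0.12 and no common direction, with 1 higher and 2 lower as deposited, and all 3 were lower with the GC trend removed.

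Iigp1 was the member with the largest difference as deposited, though not with the GC trend removed, where Gbp9 (-0.61) and Gbp4 (-0.54) were larger. This effector IRG coats the vacuole of Toxoplasma, and its gene lies on chromosome 18 from 60376027 to 60392634. It was at 9.40 in WT Th1 and 9.95 in the library labelled KO, from 696 and 1022 rebuilt reads, a difference of 0.55 (0.41 to 0.69), or 1.47-fold. Its transcript was the most AT-rich of the 10, with 39.3% GC, and with the GC trend removed the difference was 0.30. Put beside it were 4 other interferon-inducible effector IRGs, Tgtp1 and Tgtp2 (Irgb6), Gm12250 (Irgb10) and Ifi47 (Irgd). The IRG-like genes of the next paragraph were left out of this group, and its counts and median depend on that choice. Tgtp1 had 0.30 (0.23 to 0.38), Tgtp2 0.27 (0.19 to 0.34), Gm12250 0.30 (0.14 to 0.45) and Ifi47 -0.033 (-0.06 to -0.01). Ifi47 was as abundant as Igtp, with 21232 and 20752 normalized counts. With Iigp1, 4 of these 5 effectors were higher and 1 was lower, with a median of 0.30, or 0.11 with the GC trend removed. The 3 regulators had a median of -0.12. Tgtp1 and Tgtp2 are near copies whose reads cannot be separated, and with 1 of them counted it was 3 higher and 1 lower, with a median of 0.30 without Tgtp2 and 0.28 without Tgtp1. The difference between both kinds was not tested, and both kinds were put together with the values known.

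Of the remaining IRG-like genes, Irgq had -0.20 (-0.35 to -0.05), 9930111J21Rik1 0.13 (-0.01 to 0.26), 9930111J21Rik2 0.16 (0.05 to 0.27), Gm4951 -0.23 (-0.74 to 0.27), Gm4841 0.11 (-0.41 to 0.64) and Gm5431 -0.029 (-0.60 to 0.54). Irgc1 had 13 and 15 rebuilt reads and F830016B08Rik 5 and 7, too few for a comparison. Of the 17 GBP and IRG genes outside the 10, 14 had a mean log2 value of at least 5, and 0 of these were past 1.5-fold in either direction. Their median was 0.12, or -0.03 with the GC trend removed, with 9 higher and 5 lower as deposited. As deposited, the GTPase families stayed within 1.5-fold in 24 of 24 genes with a mean log2 value of at least 5, beside 82.9% of all genes at that level. Most of these GTPase genes had higher levels, and of all genes with a mean of at least 8, 88.8% stayed within 1.5-fold. In the range of mean level of the 10 members it was 91.2%. Some of the 24 are near copies that can hold each other's reads, so they are not separate values.

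**Figure D3:**
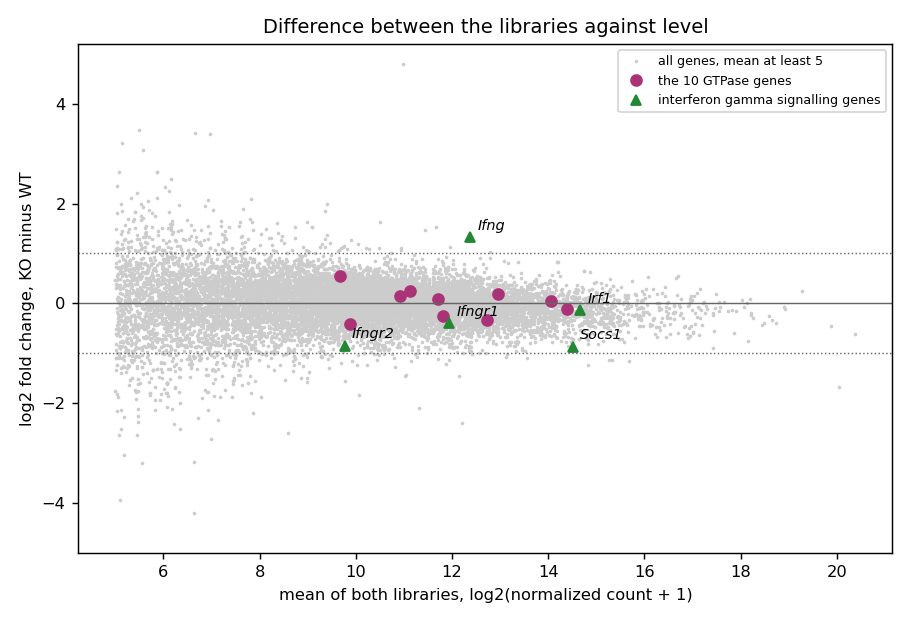
Log2 fold change of the library labelled Chi3l1 KO Th1 against WT Th1 (y axis) by the mean of both log2 values (x axis), for the 12059 genes with a mean of at least 5 (grey points). Of the 10 GTPase genes (purple circles), 9 lie between the 10th and 90th percentiles of genes of like level, and Iigp1 (0.55) lies above them. Ifng (1.32) lies above the dotted 2-fold line, and Socs1 (-0.87) and Ifngr2 (-0.85) lie near the lower 2-fold line. Green triangles mark the signalling genes Ifng, Ifngr1, Ifngr2, Irf1 and Socs1.

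Because the authors counted reads with multiple alignments, genes of near-identical sequence can hold each other's reads. Read-length windows of 100 bases were therefore searched for identical matches in every transcript of the other genes. Gbp2, Gbp5, Irgm1 and Iigp1 shared 0 identical windows with another gene. Gbp3 shared 0.929% of its windows, Gbp9 2.01%, Irgm2 2.48%, Gbp4 2.88% and Igtp 5.67%, and Gbp7 shared the most with 10.2%. Most of the windows shared by Gbp7 (9.76% of its windows) were in Gm43802, an overlapping gene model. Igtp and Irgm2 shared theirs with each other. Windows with up to 2 mismatches were searched without gaps, and only in the listed GBP, IRG and other interferon-induced large GTPase genes and in genes with identical windows. Shares with other genes could therefore be missed. In this search the shares were 13.3% for Gbp4, 12% for Gbp7, 8.11% for Igtp, 7.45% for Gbp9 and at most 4.76% for the others. Gbp5, Irgm1 and Iigp1 still shared none with the genes searched. By contrast, Tgtp1 shared 83.3% of its windows, Tgtp2 80.4%, Gbp6 82.9% and Gbp10 70.9%, and the values of these genes outside the 10 cannot be separated from those of their copies. The values of 9930111J21Rik1 (64.6%), 9930111J21Rik2 (40.3%) and Gm5431 (26.8%), which share windows with each other, are uncertain in the same way. The 4 members without an identical window had a median log2 fold change of 0.14, and 0 of them were past 1.5-fold.

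**Figure D4:**
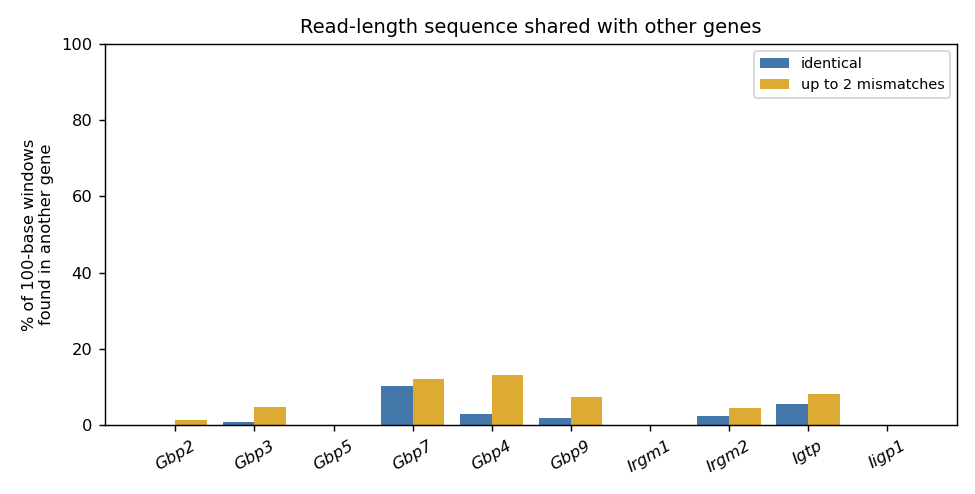
Share of the 100-base windows of each GTPase transcript that occur in a transcript of another gene, identical (blue) or with up to 2 mismatches (yellow), as bars from 0 to 100%. Mismatches were searched only in the listed GTPase genes and in genes with identical windows. In these searches no member reaches 14%, and Gbp5, Irgm1 and Iigp1 have no bar.

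Upstream of the GTPases, Ifng was higher in the library labelled KO while the receptor chains were lower. Ifng was at 11.72 in WT Th1 and 13.04 in the library labelled KO, a difference of 1.32 (1.27 to 1.38), or 2.50-fold. Ifngr1, the ligand-binding chain, had -0.39 (-0.45 to -0.33), and Ifngr2, the signalling chain, was at 10.19 and 9.35, a difference of -0.85 (-0.99 to -0.71). Jak1 had 0.013 (-0.02 to 0.05) and Jak2 0.064 (0.03 to 0.10), and both were below 0 with the GC trend removed (-0.11 and -0.14), Jak1 also after scaling to housekeeping genes (-0.004). Irf1, a transcription factor that drives interferon targets, had -0.14 (-0.17 to -0.12), or 0.011 after quantile normalization and -0.056 with the GC trend removed. Socs1, the feedback inhibitor of the Jak kinases, was at 14.95 and 14.08, a difference of -0.87 (-0.89 to -0.84), or -0.54 with the GC trend removed. Ptpn2, another signalling gene, named here after its values were seen, had 4481 and 7008 normalized counts. Its difference was 0.645 (0.59 to 0.70), and its transcript had 39.7% GC. Of the 14 signalling genes, 1 (Ifng) was at least 2-fold higher and 0 were at least 2-fold lower, beside 2.03% and 2.50% of all genes. At 1.5-fold it was 2 higher (Ifng and Ptpn2) and 2 lower (Ifngr2 and Socs1), beside 7.64% and 9.45%. The median of the 14 was -0.06.

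Other IFNγ targets were split in direction as a whole list, while those of antigen processing for MHC class I were mostly lower as deposited. Of 21 listed, 19 had a mean log2 value of at least 5, with 8 higher, 11 lower and a median of -0.057. The list holds 10 genes of the MHC class I pathway, a subset set apart after its values were seen, of which 2 were higher and 8 lower in the library labelled KO, with a median of -0.28. It was 3 higher and 7 lower after quantile normalization (median -0.13) and 4 higher and 6 lower with the GC trend removed (median -0.16). Psmb9, a subunit of the immunoproteasome, went from 10990 to 7722 normalized counts, a difference of -0.51 (-0.55 to -0.47). Tapbp, which helps load peptides on MHC class I, went from 43027 to 31172, a difference of -0.47 (-0.49 to -0.44). The genes with the largest differences in the whole list went both ways. Nos2, the inducible nitric oxide synthase, was at 8.07 and 6.81, a difference of -1.26 (-1.60 to -0.95). Cxcl9, a chemokine for T cells, had 0.92 (0.62 to 1.25), and Ciita, the master factor of MHC class II genes, had -0.89 (-1.10 to -0.68). Ciita and Cxcl9 are also made by B cells and myeloid cells, whose markers are given above, and their part was not tested.

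The GTPases also answer type I interferons, and a list of genes typical of that pathway was taken for comparison. Of 18 such genes, 15 had a mean log2 value of at least 5, 11 were higher and 4 lower, and the median was 0.24, or 0.41 with the GC trend removed. At least 1.5-fold higher were 5 of the 15, and 0 were at least 1.5-fold lower, beside 7.64% and 9.45% of all genes. Of the 5, 4 were among the 9 genes of the list with a mean log2 value from 5 to under 8, a range in which 17.3% of all 2966 genes were at least 1.5-fold higher. Oasl1 was at 5.35 and 6.63, a difference of 1.28 (0.76 to 1.86) from 41 and 101 rebuilt reads. Oasl2 had 1.10 (0.69 to 1.55) and Rtp4 0.998 (0.66 to 1.37). Oasl1 had 40 and 98 normalized counts, below the lowest GTPase, Iigp1, with 673 and 987. Usp18, a brake on type I interferon signalling that is named here after its values were seen, was the single gene of the 5 at a higher level, with 1150 and 2215 normalized counts and a difference of 0.95 (0.84 to 1.05). Among other interferon-induced large GTPases, Mx2 had 27 and 71 rebuilt reads, a difference of 1.36 (0.73 to 2.09). Gvin1 and Gm4070, which are near copies, were listed with the same values, 13.69 and 13.87. Gm8979, annotated as a pseudogene, had 0.53 (0.37 to 0.70). It shared 12.5% of its 100-base windows with Gvin1, 11.1% with Gm4070 and 61.5% with Gm8989, so its value is uncertain.

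**Figure D5:**
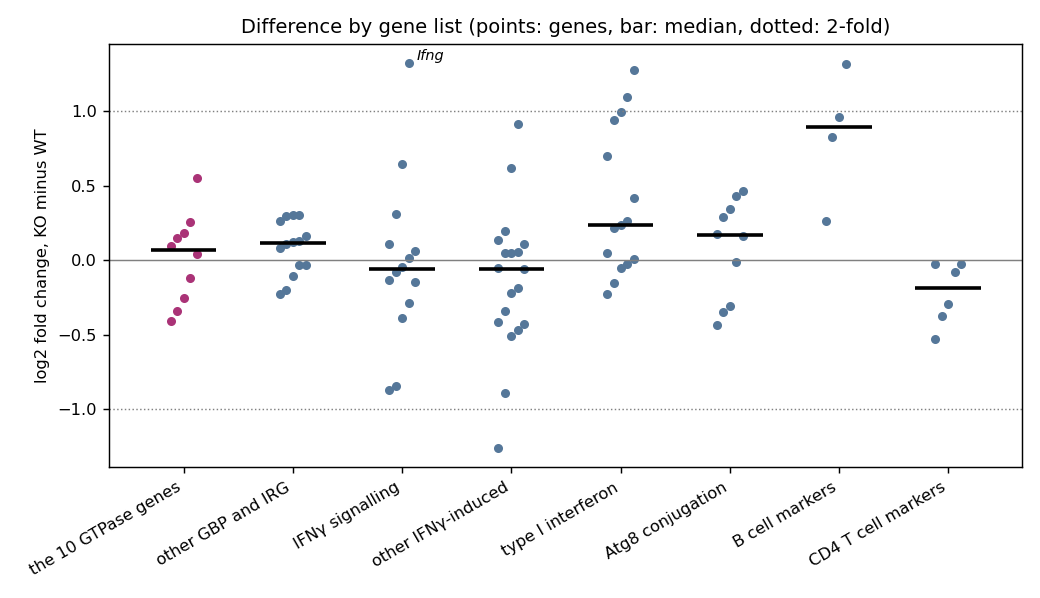
Log2 fold change of the library labelled Chi3l1 KO Th1 against WT Th1 for the genes of each list with a mean log2 value of at least 5 (points), with the median of the list (bar) and dotted lines at 2-fold. The medians of the 10 GTPases and of the other GBP and IRG genes are 0.07 and 0.12 (-0.082 and -0.03 with the GC trend removed). The median of the type I interferon list is 0.24 and that of the 4 B cell markers 0.90.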

How the data were processed

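RNA of 1 WT Th1 and 1 Chi3l1 KO Th1 culture was sequenced as paired reads from polyadenylated RNA. The authors aligned reads with TopHat to mm10 and counted unique and multiple alignments for edgeR, and the deposited tables hold, per gene symbol, log2 values of a normalized count with 1 added, after a global normalization. This unit was inferred, because 2 raised to the value, minus 1, gave whole multiples (within 0.1 of a read) of 0.9675 in WT Th1 and 0.9655 in the library labelled KO for 100% of low values. The versions of TopHat and edgeR and the gene annotation are not given in the sources used here.

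Fold changes are differences of deposited values. Exact binomial (Clopper-Pearson) 95% intervals were taken from the rebuilt reads. They hold counting error only and take alignments as independent. No p-value was computed. The background is all genes with a mean log2 value of at least 5. Gene positions, transcript lengths and GC content came from GENCODE M21 and promoters from RefSeq (GRCm38.p6). Both are on the build of the labels. Named are the 10 members, Chil1, the core signalling genes, every other GBP and IRG gene, and up to 3 genes with the largest differences per list. The values of 1 signalling gene are not reported here. The members and lists were chosen with earlier results of these data known. The length of all exons, the windows with mismatches and the spacing of GAS and ISRE core were added after seeing the data. So were the MHC class I subset, the effectors with 1 Tgtp gene and the background of low levels. Scripts were checked on simulated data and run in Python (3.11.15), using scipy (1.17.1) for intervals, pandas (2.3.3) and numpy (2.4.6) for tables, and matplotlib (3.10.9) for figures.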

Additional observations from a re-analysis of the deposited data

How the results depend on the processing

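The count of members past 2-fold was 0 in each direction under every setting tried, which were pseudocounts of 0.1 and none, median-ratio, trimmed mean, quantile and housekeeping scaling, removal of the GC trend, and a 1.5-fold threshold. The median of the members, 0.07, was 0.14 after quantile normalization, -0.082 with the GC trend removed and 0.14 over the 4 members without an identical shared window. With the GC trend removed the medians of the other GBP and IRG genes and of the signalling genes were -0.03 and -0.13. The GC trend ran from a median of 0.25 in the most AT-rich of 20 bins to -0.46 in the most GC-rich over 8774 genes. The bins of the members had medians from 0.054 to 0.25, so its removal lowers every member. Of 18 single genes tried, 17 left their counting interval with the GC trend removed and 10 after quantile normalization, and none did under the other 5 settings. Over all genes, 245 higher and 301 lower past 2-fold became 921 and 1139 at 1.5-fold, 55 and 78 with a mean of at least 8, and 1147 and 1418 without a filter. With 1 library per genotype no replicate could be left out and no SD could be given.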

Other observations

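GBPs and IRGs are guided to their target membranes by the conjugation system that attaches Atg8 proteins to lipids. Of its 10 genes listed, 6 were higher and 4 lower in the library labelled KO, and the median log2 fold change was 0.17. Past 1.5-fold were 0 of them, which is near the background. Of all genes with a mean log2 value of at least 8, 88.8% stayed within 1.5-fold. Values with the GC trend removed are not given for this list. Gabarapl1, an Atg8 protein, had 0.47 (95% exact binomial interval 0.35 to 0.58), Map1lc3a, another, had -0.43 (-0.54 to -0.33), and Atg5, part of the enzyme that attaches them, had 0.43 (0.31 to 0.55). The Map1lc3a transcript had 63.1% GC, and the median of the most GC-rich bin of genes was -0.46, close to its own value.

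GBPs also lead to inflammasomes, of which few genes were expressed. Of 8 listed, 5 had a mean log2 value of at least 5, with 2 higher and 3 lower. Aim2, a sensor of cytosolic DNA, had 50 and 84 rebuilt reads, a difference of 0.74 (0.22 to 1.28). Gsdmd, which forms the pore in the cell membrane, had 1098 and 783, a difference of -0.49 (-0.62 to -0.36), and Casp1 had 42 and 31, a difference of -0.43 (-1.16 to 0.26). Il1b, Il18 and Nlrp3, which myeloid cells express most, had 3 to 13 rebuilt reads in each library, and they were named after their values were seen.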
